A study of Capra hircus with 6 samples.

Results

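The cyclins, the cyclin-dependent kinases (CDKs) and the CDK inhibitors were examined in the transcriptome of goat dermal papilla cells cultured with or without all-trans retinoic acid (ATRA), which is made from vitamin A and acts through nuclear receptors. The members were all genes of the count table whose name, or listed symbol, has the form of a cyclin (CCN and a letter), a CDK (CDK and a number) or a CDK inhibitor of the CDKN1, CDKN2 or CDKN3 series. This gave 55 of 15944 genes, of which 50 were found by name and 5 by their listed symbol alone. Those 5 were FAM58A, listed as the cyclin gene CCNQ, and 4 genes under LOC numbers. By role, 25 members belong to the cell-cycle machinery, 15 to the transcriptional cyclins and CDKs, and 15 to neither. The roles were assigned from textbook knowledge of each gene and not from the counts.

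The cells were primary cultures of wild-type secondary hair follicle dermal papilla cells (SHF-DPCs) from the skin of Capra hircus, taken from goats aged 3 years. RNA-seq covered 3 control libraries, cultured without ATRA, and 3 ATRA libraries, from cells given ATRA at 100 µM for 24 h. According to the methods of the study, cells from 3 animals were treated, ATRA was made up in culture medium, and control cells received medium alone. The labels do not tie a library to an animal, and all 6 libraries carry a single batch label. Whole-number read counts per gene totalled 36887160 to 38012771 in the control group and 35532339 to 36870939 in the ATRA-treated group.

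A cyclin binds a CDK and switches on its kinase activity, and because most cell-cycle cyclins are made and destroyed once per division, the kinase activity comes in waves. D cyclins with CDK4 or CDK6 act in G1 phase, E cyclins with CDK2 at the entry to S phase, cyclin A with CDK2 or CDK1 in S and G2 phase, and B cyclins with CDK1 in mitosis. The Cip/Kip inhibitors (CDKN1A, CDKN1B and CDKN1C) bind cyclin-CDK complexes broadly, whereas the INK4 inhibitors (CDKN2A to CDKN2D) bind CDK4 and CDK6. Another branch of the same families does not drive division: cyclins T, K, H, C and L with CDK9, CDK12, CDK13, CDK7, CDK8, CDK19 and CDK11 act on RNA polymerase II, the Mediator complex or splicing. In the hair follicle, the dermal papilla is a mesenchymal signalling centre whose cells divide little in vivo but do divide in culture.

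Levels are given as CPM, read counts scaled to a common library size after correction by the TMM factors of edgeR, and a change is the log2 fold change (log₂FC) of ATRA over control with its standard error (SE). A gene was called higher or lower at an adjusted p under 0.05 (edgeR's quasi-likelihood test, two-sided, Benjamini-Hochberg adjustment over all genes tested). The term differentially expressed gene (DEG) is kept for |log₂FC| above 1 together with p under 0.05 before adjustment. Gene lengths were not used, so levels are compared between groups and not between genes. Of the 55 members, 51 passed the expression filter. The other 4, CCNA1, CDK15, CDK18 and LOC102174466, a gene listed as CCNC, had 0 to 3 counts in each library and were not tested.

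Cell-cycle and transcriptional members differed in their direction with ATRA. Of the 24 cell-cycle members tested, 15 were lower, 6 were higher and 3 were not called, with a median log₂FC of -1.21. Of the 14 transcriptional members tested, 11 were higher, 1 was lower and 2 were not called, with a median log₂FC of 0.47. The rise was mainly in the cyclins, with 7 of 7 higher and a median of 0.63. Of the 7 transcriptional CDKs, 4 were higher, 1 lower and 2 not called, with a median of 0.22. Among all 12588 genes tested, 38.7% were called lower and 40.9% higher, and the median log₂FC was 0.04. By the DEG thresholds, 12 cell-cycle members were lower and 3 higher, while 2 transcriptional members were higher and 0 were lower, against 17.3% lower and 13.7% higher among all genes. Over all genes 31.0% were DEGs. The 13 other members tested were divided, with 6 higher, 5 lower and 2 not called. Over all 51 members together, 23 were higher and 21 lower, near the 79.7% of all genes called in either direction. In 22 members every ATRA library lay above every control library and in 22 every ATRA library lay below, while 7 overlapped, and such separation in either direction was found in 80.1% of all genes. In bulk RNA, fewer cells that express a gene and less of its RNA per cell cannot be told apart.

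The direction of small changes depends on how the libraries are scaled. The TMM factors were 0.842 to 0.851 in the control group and 1.165 to 1.197 in the ATRA-treated group. With library size only, the median log₂FC of all genes moved from 0.04 to 0.52. Each list moved with it: the cell-cycle median lay 1.25 below the median of all genes under either scaling (-1.25 with TMM, -1.25 with library size only), and the transcriptional median lay 0.43 above it under both. A change of scaling shifts every log₂FC by nearly the same amount, so these gaps had to stay nearly equal. Their equality is therefore no further evidence for the difference between the lists. With library size only, 14 cell-cycle members were lower and 9 higher, 13 transcriptional members were higher and 0 lower, and 9 other members were higher and 1 lower. Over all 51 members, library size only gave 31 higher and 15 lower, while among all genes it called 62.9% higher and 22.7% lower. Members whose direction turned are named as such where they appear.

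**Figure D1:**
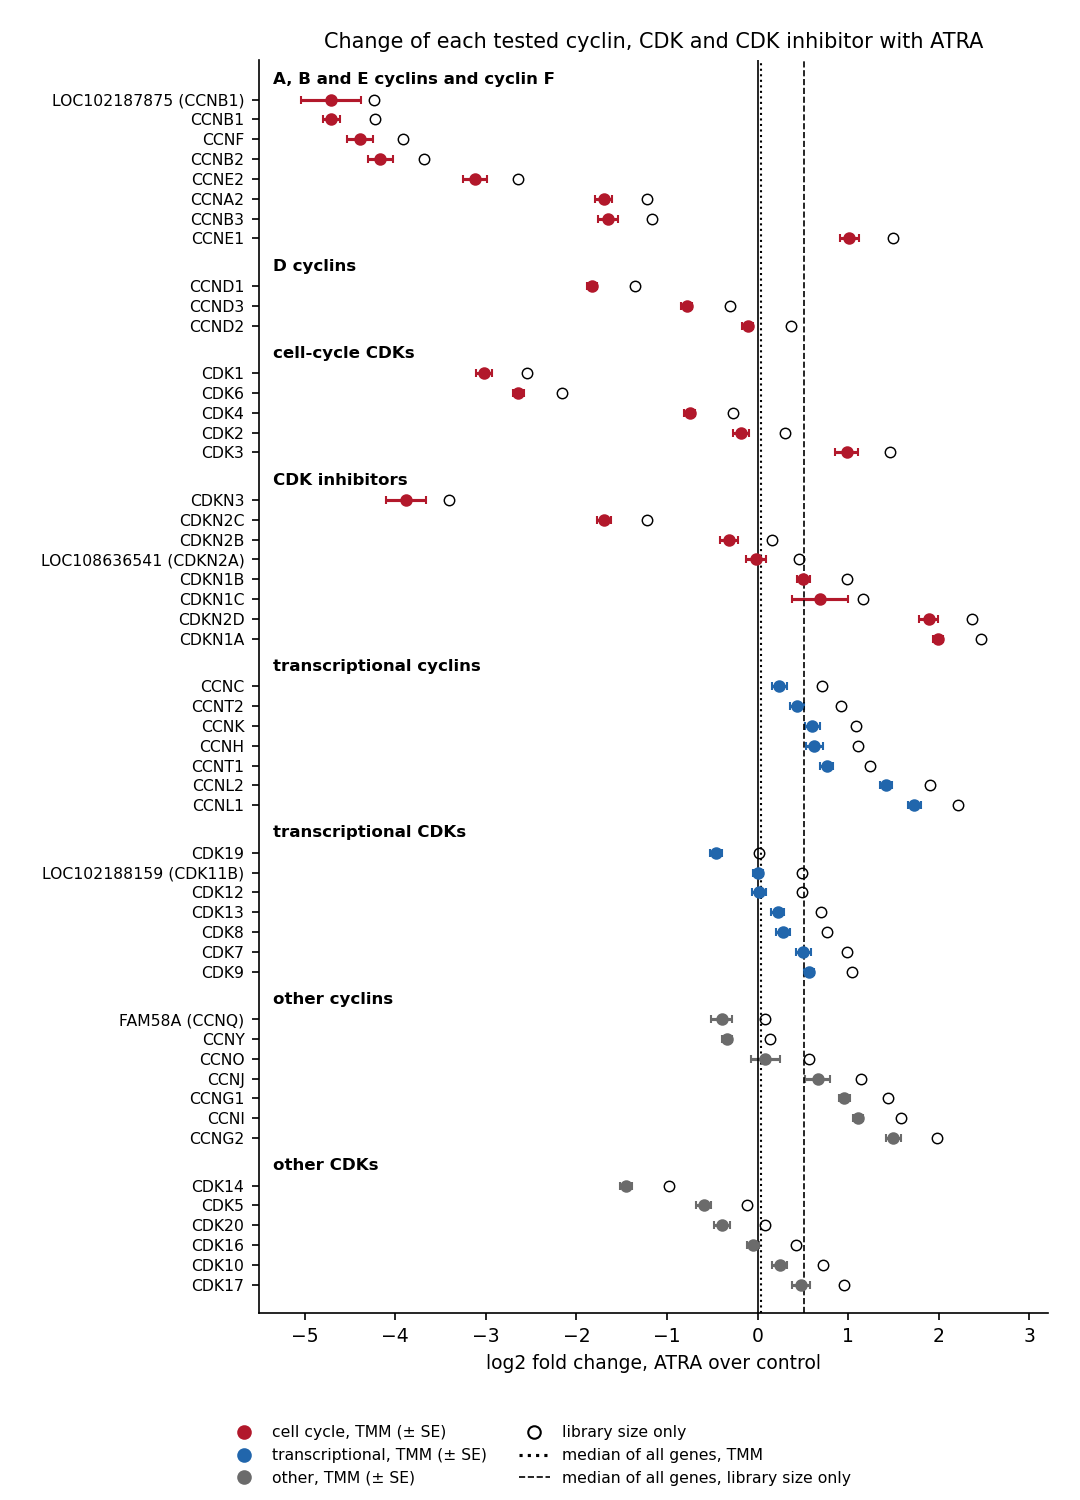
The log₂FC of each of the 51 members tested (x axis, ATRA over control) is grouped by role, with TMM scaling as filled points (bars, SE) and library size only as open points. Cell-cycle members (red) extend to -4.71, while transcriptional members (blue) lie between -0.46 and 1.73; the dotted and dashed lines mark the medians of all genes, 0.04 and 0.52.

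The mitotic cyclins fell furthest. CCNB1 encodes cyclin B1, the main partner of CDK1 in mitosis, and it had 65.6, 62.7 and 56.4 CPM in the control libraries and 2.29, 2.54 and 2.25 CPM in the ATRA libraries. This was a 26.0-fold lower level (log₂FC -4.70, SE 0.0991, adjusted p = 3.55e-18). LOC102187875, listed in the table as CCNB1 too, had 147, 109 and 121 counts in the control libraries and 2, 8 and 9 with ATRA (log₂FC -4.71, SE 0.330). How reads shared by this pair of genes were assigned is not given in the sources used here, so their separate values are uncertain, although both were lower in each ATRA library than in any control library.

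CCNB2, which encodes cyclin B2, showed a fall of similar size. It had 15.6, 16.4 and 15.3 CPM in the control libraries and 0.972, 0.748 and 0.918 CPM with ATRA, a 17.9-fold lower level (SE 0.141 on the log2 scale, adjusted p = 3.84e-15). CCNF encodes cyclin F, a cyclin that binds no CDK and acts as the substrate receptor of an SCF ubiquitin ligase. It had 17.5, 17.2 and 18.7 CPM in the control libraries and 0.972, 0.657 and 0.918 CPM with ATRA, and was 20.9-fold lower (SE 0.145, adjusted p = 2.70e-15). For both genes the groups were far apart, with each ATRA library under 1 CPM.

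CCNB3 and CCNA2 fell less. CCNB3, a B cyclin best known for its role in meiosis, went from 22.2, 19.1 and 22.2 CPM to 6.71, 7.73 and 5.82 CPM (log₂FC -1.65, SE 0.111, adjusted p = 1.27e-10). CCNA2 encodes cyclin A2, which acts in S and G2 phase, and went from 39.8, 37.6 and 39.2 CPM to 13.002, 10.04 and 12.9 CPM (log₂FC -1.70, SE 0.0939, adjusted p = 6.52e-12). CCNA2 therefore kept a larger part of its control level than CCNB1, CCNB2 or CCNF did, and its 3 ATRA values all lay below its 3 control values.

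The E cyclins, which activate CDK2 at the start of DNA synthesis, moved in opposite directions. CCNE2 had 13.5, 13.9 and 13.1 CPM in the control libraries and 1.57, 1.72 and 1.35 CPM with ATRA, an 8.69-fold lower level (SE 0.134 on the log2 scale, adjusted p = 1.35e-13). CCNE1 had 6.77, 6.37 and 6.23 CPM in the control libraries and 13.9, 13.6 and 11.6 CPM with ATRA, a 2.02-fold higher level (SE 0.110, adjusted p = 1.12e-07). CCNE1 was the only one of the 8 tested A, B and E cyclins and cyclin F that was higher. The other 7 were lower DEGs, where 17.3% of all genes were. These 7 include LOC102187875, so a gene listed as CCNB1 is counted along with CCNB1 itself. The log₂FC of CCNE1, 1.01, lay close to the DEG threshold. It was under the threshold without Control replicate 2, Control replicate 3, ATRA replicate 1 or ATRA replicate 2. Over the 6 fits that each left out 1 library, it ranged from 0.96 to 1.08.

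D cyclins link growth signals to the cycle, and 2 of the 3 were called lower, where 38.7% of all genes were. With library size only 2 were lower and 1 higher, against 22.7% and 62.9% of all genes. CCND1 (cyclin D1) had 257, 262 and 268 CPM in the control libraries and 72.9, 74.8 and 74.0 CPM with ATRA, a 3.55-fold lower level (SE 0.0545, adjusted p = 5.86e-16). CCND3 (cyclin D3) had 109.96, 106 and 104 CPM in the control libraries and 60.6, 60.6 and 65.0 CPM with ATRA (log₂FC -0.78, SE 0.0599, adjusted p = 8.68e-10). CCND2 (cyclin D2) was not called with TMM, at 70.2, 70.3 and 73.7 CPM against 63.3, 67.9 and 67.5 CPM (log₂FC -0.11, adjusted p = 0.112 by edgeR). With library size only, the log₂FC of CCND2 turned to 0.37 and it was called higher. Without ATRA replicate 2 the edgeR adjusted p of CCND2 was 0.0452, and over the 6 fits that each left out 1 library it ranged from 0.0452 to 0.294.

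Of the CDKs that drive the cycle, CDK1 and CDK6 fell most. CDK1, the kinase of mitotic entry, had 51.5, 58.1 and 50.2 CPM in the control libraries and 6.80, 6.51 and 6.40 CPM with ATRA, an 8.11-fold lower level (SE 0.0867, adjusted p = 3.27e-16). CDK6, a D-cyclin kinase, had 190.5, 185 and 193 CPM in the control libraries and 31.0, 30.1 and 30.01 CPM with ATRA, a 6.23-fold lower level (SE 0.0591, adjusted p = 8.10e-18). CDK4, the other D-cyclin kinase, fell less, from 106, 103 and 96.9 CPM to 60.4, 57.4 and 64.4 CPM (log₂FC -0.75, SE 0.0641, adjusted p = 4.10e-09). For these 3 kinases no ATRA library reached the lowest control library, as was so for 39.0% of all genes.

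CDK2 and CDK3 did not follow them. CDK2, the partner of cyclins E and A, had 19.0, 18.0 and 19.6 CPM in the control libraries and 18.0, 15.6 and 16.3 CPM with ATRA, and the groups overlapped (log₂FC -0.18, SE 0.0870, adjusted p = 0.0670 by edgeR). With library size only the sign of its log₂FC turned (0.30) and CDK2 was called higher. With TMM and without ATRA replicate 1, its edgeR adjusted p was 0.02999, the lowest of the 6 such fits, which reached 0.165. CDK3, a kinase linked to the exit from quiescence, rose from 5.25, 4.27 and 5.48 CPM to 10.1, 8.96 and 10.7 CPM (log₂FC 0.98, SE 0.127, adjusted p = 1.15e-06), just under the DEG threshold.

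**Figure D2:**
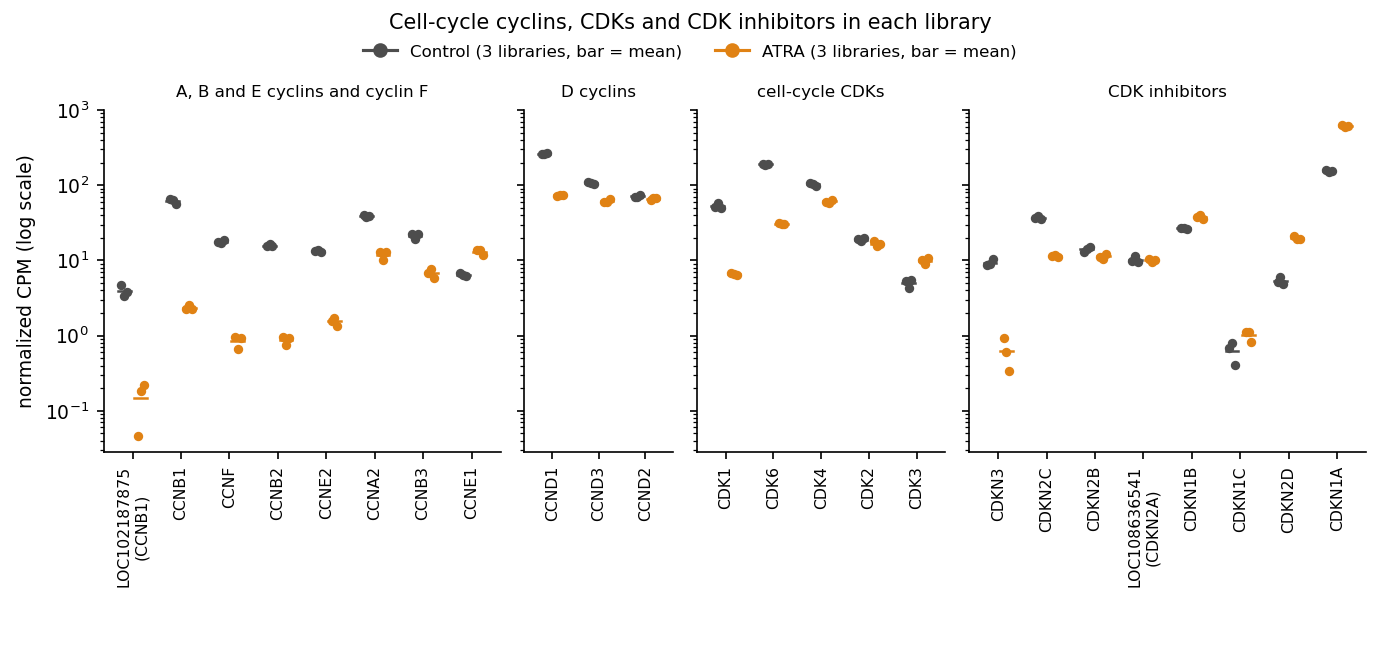
Normalized CPM (log axis) of each tested cell-cycle member in the 3 control libraries (grey) and the 3 ATRA libraries (orange), with bars at the group means. CDKN1A lies between 602 and 628 CPM with ATRA, above its control libraries at 151 to 158 CPM, while CCNB1 lies between 2.25 and 2.54 CPM with ATRA, below its control libraries.

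The 8 CDK inhibitors tested were divided, with 4 higher, 3 lower and 1 not called, and a median log₂FC of 0.24. Among all genes 40.9% were higher and 38.7% lower. CDKN1A, which encodes the p53-responsive inhibitor p21, had 158, 151 and 156 CPM in the control libraries and 628, 602 and 618 CPM with ATRA. It was 3.98-fold higher (SE 0.0565 on the log2 scale, adjusted p = 2.74e-16), the largest increase among the 51 members tested. CDKN1B, which encodes p27, rose less, from 27.1, 27.4 and 26.5 CPM to 38.2, 40.6 and 35.9 CPM (log₂FC 0.504, SE 0.0733, adjusted p = 5.11e-06). CDKN1C, which encodes p57, was measured on 13 to 26 counts per control library and 34 to 49 counts per ATRA library (log₂FC 0.69, SE 0.310, adjusted p = 0.0491 by edgeR). Its call was lost without Control replicate 1, Control replicate 3, ATRA replicate 1 or ATRA replicate 2, each left out in turn, with an adjusted p of up to 0.227, and over the 6 such fits its log₂FC ranged from 0.45 to 0.904.

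The INK4 inhibitors also diverged. CDKN2D rose from 5.19, 6.03 and 4.86 CPM to 20.8, 19.2 and 19.5 CPM, a 3.70-fold higher level (SE 0.105 on the log2 scale, adjusted p = 7.50e-12). CDKN2C fell from 37.0, 39.0 and 35.5 CPM to 11.6, 11.6 and 11.2 CPM, a 3.24-fold lower level (SE 0.0789, adjusted p = 4.85e-13). Neither gene had overlapping groups, as was so for 80.1% of all genes.

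CDKN2B had 13.05, 14.3 and 14.8 CPM in the control libraries and 10.99, 10.5 and 12.3 CPM with ATRA, and was lower with TMM (log₂FC -0.32, adjusted p = 0.00672 by edgeR) but turned to 0.16 with library size only. LOC108636541, listed as CDKN2A, was not called, at 9.70, 11.3 and 9.46 CPM against 10.4, 9.48 and 10.198 CPM (log₂FC -0.018, SE 0.106, adjusted p = 0.883). With library size only it turned to 0.46 and was called higher. The CDKN2A locus encodes both an INK4 inhibitor and the unrelated p53 regulator ARF, and counts per gene do not separate them. CDKN3, named as an inhibitor, encodes a phosphatase that removes the activating phosphate of CDKs and is itself made in dividing cells. It fell from 8.57, 8.996 and 10.3 CPM to 0.925, 0.612 and 0.338 CPM, a 14.7-fold lower level (SE 0.218, adjusted p = 8.60e-12).

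The transcriptional cyclins rose together: 7 of 7 tested were called higher with TMM, where 40.9% of all genes were, and 7 of 7 with library size only, where 62.9% were. Their median log₂FC with TMM was 0.63. CCNL1 and CCNL2 encode the L cyclins, which pair with CDK11 and act in pre-mRNA splicing. CCNL1 had 50.8, 46.1 and 47.7 CPM in the control libraries and 177, 155 and 148 CPM with ATRA, a 3.31-fold higher level (SE 0.0715, adjusted p = 7.96e-14). CCNL2 had 94.7, 82.4 and 97.1 CPM in the control libraries and 259.7, 229.9 and 244 CPM with ATRA (log₂FC 1.42, SE 0.0682, adjusted p = 7.79e-13). These were the transcriptional members that reached the DEG thresholds, and the lowest ATRA library of each lay well above the highest control library.

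CCNT1 and CCNT2 encode the T cyclins of P-TEFb, the kinase that releases paused RNA polymerase II. CCNT1 rose from 40.5, 41.7 and 42.2 CPM to 65.1, 76.6 and 69.2 CPM (log₂FC 0.76, SE 0.0704, adjusted p = 1.27e-08). CCNT2 rose from 33.3, 31.5 and 32.2 CPM to 45.2, 46.7 and 39.3 CPM (log₂FC 0.44, SE 0.0765, adjusted p = 4.26e-05). Their kinase partner CDK9 rose from 104, 95.5 and 100.2 CPM to 154, 142 and 148 CPM (log₂FC 0.57, SE 0.0581, adjusted p = 5.21e-08). CCNT1, CCNT2 and CDK9 were thus all called higher, where 40.9% of all genes were. None of them had overlapping groups, as was so for 80.1% of all genes.

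CCNH and CDK7 form the CDK-activating kinase, which phosphorylates the cell-cycle CDKs and, within TFIIH, RNA polymerase II. CCNH rose from 13.5, 16.5 and 15.5 CPM to 23.5, 22.3 and 24.5 CPM (log₂FC 0.63, SE 0.0901, adjusted p = 4.35e-06). CDK7 rose from 16.5, 17.2 and 16.3 CPM to 24.8, 22.1 and 24.02 CPM (log₂FC 0.51, SE 0.0821, adjusted p = 1.85e-05). Cyclin and kinase of this pair moved by about the same amount. Their partner MNAT1 was not called, with overlapping groups (log₂FC 0.17, SE 0.0894, adjusted p = 0.0821 by edgeR), but was called higher with library size only (0.65).

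Cyclin K activates CDK12 and CDK13, which support the elongation of long transcripts. CCNK rose from 24.5, 22.8 and 27.9 CPM to 40.3, 36.7 and 37.2 CPM (log₂FC 0.603, SE 0.0824, adjusted p = 2.37e-06). CDK13 was higher by a small amount, from 58.8, 57.7 and 59.96 CPM to 68.7, 73.9 and 62.9 CPM (log₂FC 0.22, SE 0.0678, adjusted p = 0.00637 by edgeR). CDK12 was not called, with overlapping groups at 43.3, 45.5 and 50.6 CPM against 43.8, 50.4 and 46.6 CPM (log₂FC 0.015, SE 0.0760, adjusted p = 0.860). It was called higher with library size only (log₂FC 0.49).

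Cyclin C with CDK8 or CDK19 forms the kinase module of Mediator, and its parts did not move alike. CCNC had 35.6, 42.7 and 36.4 CPM in the control libraries and 44.1, 49.1 and 42.0 CPM with ATRA, and was called higher (log₂FC 0.24, SE 0.0823, adjusted p = 0.0137 by edgeR) although the groups overlapped. Its adjusted p was 0.0861 without Control replicate 1 and 0.0717 without Control replicate 3, so the call rests on these libraries (range over the 6 fits, 0.00388 to 0.0861). CDK8 rose from 29.8, 29.6 and 29.1 CPM to 33.9, 39.3 and 34.4 CPM (log₂FC 0.28, SE 0.0762, adjusted p = 0.00254). CDK19 was the 1 transcriptional member called lower, at 83.1, 94.0 and 90.1 CPM against 62.1, 69.6 and 62.5 CPM (log₂FC -0.46, SE 0.0675, adjusted p = 5.55e-06), but its log₂FC was 0.018 with library size only.

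LOC102188159, listed as CDK11B, the partner of the L cyclins, was not called at 188, 182 and 188 CPM in the control libraries and 178, 190.0 and 192 CPM with ATRA (log₂FC 0.0071, SE 0.0544, adjusted p = 0.909 by edgeR). The L cyclins thus rose while the kinase gene listed as their partner stayed within the spread of its libraries under TMM. With library size only, it was called higher (log₂FC 0.49).

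**Figure D3:**
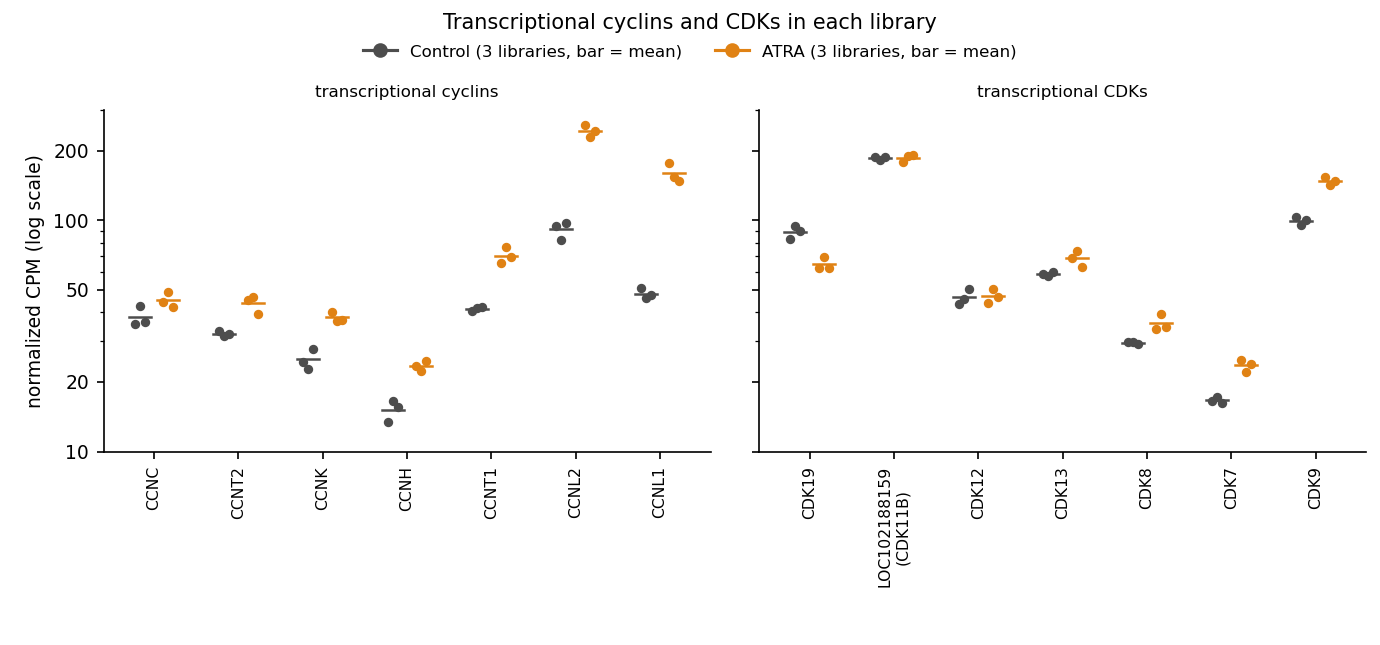
Normalized CPM (log axis) of each tested transcriptional cyclin and CDK in the 3 control libraries (grey) and the 3 ATRA libraries (orange), with bars at the group means. CCNL1 and CCNL2 show the widest gaps, CCNL1 from 46.1 to 50.8 CPM in the control libraries and from 148 to 177 CPM with ATRA, while CDK19 is lower with ATRA and CDK12 overlaps.

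Among the cyclins outside both groups, 4 of 7 were higher, 2 lower and 1 not called, against 40.9% higher and 38.7% lower among all genes. CCNG1 and CCNG2 encode the G cyclins, which are known as stress-responsive and growth-restraining cyclins. CCNG2 rose from 14.1, 14.0 and 15.5 CPM to 38.8, 43.8 and 40.9 CPM (log₂FC 1.499, SE 0.0808, adjusted p = 4.52e-12). CCNG1, a p53 target, rose from 361, 376 and 351 CPM to 680.3, 746.5 and 684 CPM (log₂FC 0.96, SE 0.0595, adjusted p = 3.89e-11). CCNI, which encodes cyclin I, rose from 132, 128 and 123 CPM to 274, 278 and 274 CPM (log₂FC 1.11, SE 0.0538, adjusted p = 9.13e-13). None of these 3 genes had overlapping groups, as was so for 80.1% of all genes.

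CCNJ was also called higher, with a log₂FC of 0.66. CCNO was not called, but was called higher with library size only (0.57). CCNY and FAM58A were called lower, with a log₂FC of -0.34 and -0.398, but the sign turned with library size only, to 0.14 and 0.079. CCNY was then called higher and FAM58A was not called. Of the 6 other CDKs tested, 2 were higher, 3 lower and 1 not called, against 40.9% higher and 38.7% lower among all genes. CDK14, a kinase that cyclin Y recruits to the plasma membrane, fell from 149, 155 and 161 CPM to 53.2, 61.9 and 54.6 CPM (log₂FC -1.45, SE 0.0663, adjusted p = 3.48e-13). It was the only DEG among the other CDKs, which ranged from -1.45 to 0.48.

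CDK5, best known in neurons, and CDK20 were called lower, with a log₂FC of -0.597 and -0.39. With library size only the log₂FC of CDK5 was -0.12 and not called, and that of CDK20 turned to 0.086. CDK10 and CDK17 were called higher, with a log₂FC of 0.24 and 0.48, and CDK10 was not called without ATRA replicate 3 (log₂FC 0.17, edgeR adjusted p = 0.0994, from 0.00082 over the 6 fits). CDK16 was not called (log₂FC -0.053), but with library size only it turned to 0.43 and was called higher.

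Closely related members were also compared as the ratio of their read counts within each library, which does not depend on the scaling. These 14 pairs were put together after the counts had been seen, so the ratios are given as descriptions without a test, and because gene length was not divided out only their shift carries meaning. The log2 ratio of CCNE1 to CCNE2 went from -1.07 ± 0.0672 (SD, n = 3) in the control group to 3.07 ± 0.0864 (SD, n = 3) with ATRA, the widest shift of the 14. That of CDKN2D to CDKN2C went from -2.799 ± 0.0933 to 0.79 ± 0.0582 (SD, n = 3 each). In both pairs the shift was far wider than the spread of the ratio within a group.

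The log2 ratio of CDK4 to CDK6 went from -0.89 ± 0.0893 to 0.999 ± 0.0899 (SD, n = 3 each), and that of CDK1 to CDK2 from 1.498 ± 0.175 to -1.34 ± 0.0732 (SD, n = 3 each). The D cyclins moved toward CCND2, with the log2 ratio of CCND1 to CCND2 going from 1.88 ± 0.0166 to 0.16 ± 0.0396 (SD, n = 3 each). Among the transcriptional members, CDK8 to CDK19 moved by 0.74, CCNT1 to CCNT2 by 0.33 and CCNL1 to CCNL2 by 0.303 on the log2 scale. The ratio of CDK12 to CDK13 overlapped between the groups.

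**Figure D4:**
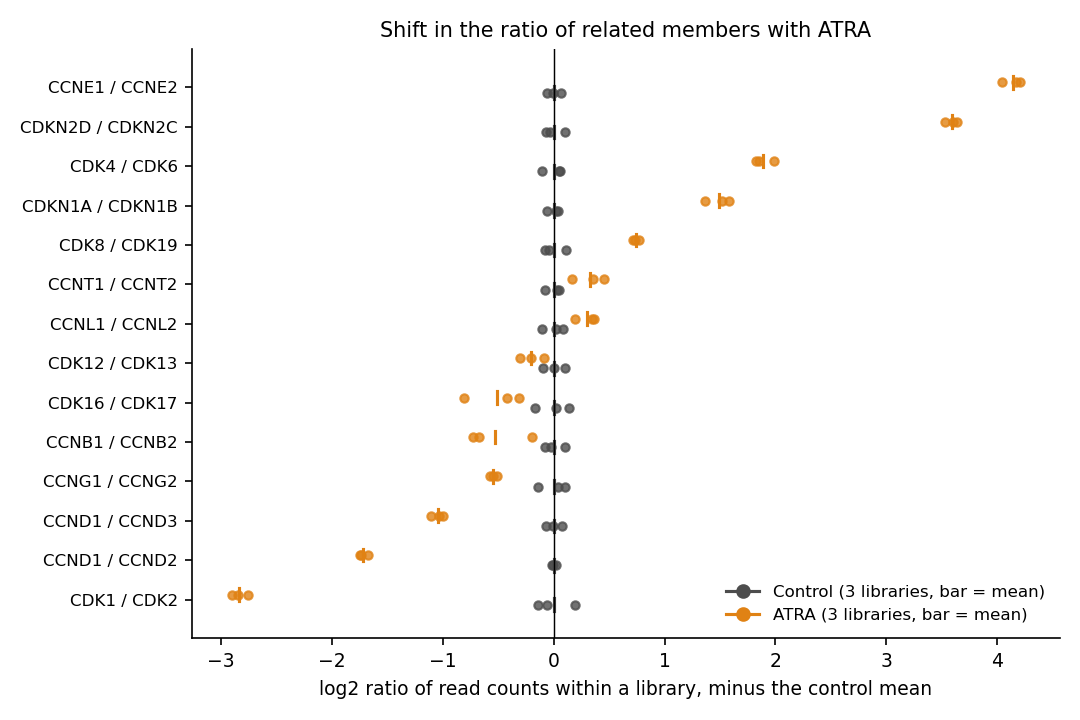
For 14 pairs of related members, the log2 ratio of read counts within each library is drawn relative to the control mean (x axis), for the 3 control libraries (grey) and the 3 ATRA libraries (orange), with bars at the group means. CCNE1 / CCNE2 shifts by 4.14 and CDK1 / CDK2 by -2.84, and the shifts of the transcriptional pairs stay within 0.74 of 0.

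Genes that act on the cyclins and CDKs but fall outside the naming rule were taken from lists written from textbook roles. Over all genes, 38.7% were called lower and 40.9% higher with TMM, and 22.7% and 62.9% with library size only. All 7 activators and kinases of the cell-cycle CDKs fell, with a median log₂FC of -2.54, although CDC25A was no longer called with library size only (-0.26). They include the CDC25 phosphatases, which activate CDKs, with CDC25C at -5.06 (SE 0.288) and CDC25B at -3.38 (SE 0.0924). They also include PKMYT1 at -2.54 (SE 0.323), a kinase that inhibits CDK1, and CKS2 at -2.77 (SE 0.104), a small CDK-binding subunit. Activating and inhibiting enzymes of CDK1 were therefore both lower.

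Of 8 ubiquitin ligase parts that turn over cyclins and inhibitors, 4 were lower and 4 higher, against 3 lower and 5 higher with library size only. Among all genes 38.7% were lower and 40.9% higher with TMM, and 22.7% and 62.9% with library size only. CDC20, the mitotic activator of the anaphase-promoting complex, fell from 51.9 ± 2.08 to 0.264 ± 0.0698 CPM (SD, n = 3 each, log₂FC -7.60, SE 0.137). FBXO5, an inhibitor of that complex, and SKP2, the receptor that marks p27 for destruction, fell by 3.38 and 1.78 on the log2 scale. AMBRA1, the receptor for D cyclins, was higher with a log₂FC of 0.39 (SE 0.0693), and the other higher members, SKP1, CUL1 and FBXW7, lay between 0.26 and 0.35. FZR1, the other activator of the anaphase-promoting complex, was lower (-0.197) but turned to 0.28 with library size only and was then called higher.

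Partners of the transcriptional CDKs were mixed, with 3 of 11 higher, 4 lower and 4 not called, but the balance moved to 7 higher and 3 lower with library size only. For all genes the shares were 40.9% higher and 38.7% lower, and 62.9% and 22.7% with library size only. HEXIM1, which holds P-TEFb inactive, rose with a log₂FC of 0.88 (SE 0.0569), while HEXIM2 fell (-1.16, SE 0.172). LARP7, which binds the 7SK RNA of the same inactive complex, fell (-0.73, SE 0.0887), as did AFF1, a scaffold of the super elongation complex (-0.86, SE 0.0775). Of 10 tested relatives of the families, 4 were higher, 4 lower and 2 not called, against 6 higher and 2 lower with library size only. The largest changes were in CCNYL1, a relative of cyclin Y (-2.34, SE 0.0613), CDK5R1, the activator p35 of CDK5 (1.38, SE 0.184), CABLES1 (-0.93, SE 0.107) and CDK2AP2 (0.900, SE 0.0794).

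**Figure D5:**
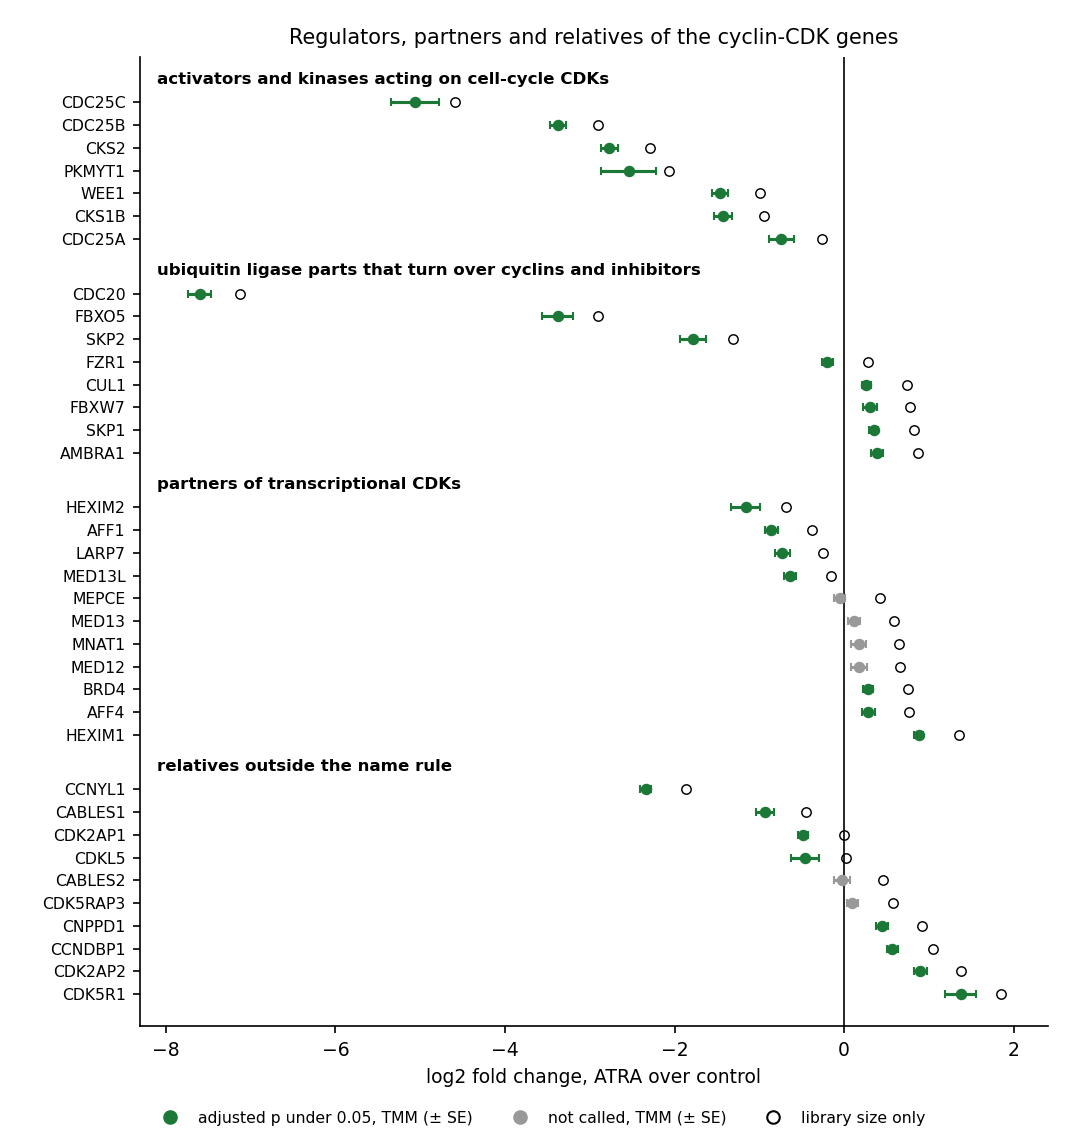
The log₂FC (x axis, ATRA over control) of the tested regulators, partners and relatives, with TMM scaling as filled points (bars, SE; green, adjusted p under 0.05; grey, not called) and library size only as open points. The activators and kinases of the cell-cycle CDKs all lie below 0, from -5.06 to -0.74, while the partners of transcriptional CDKs lie on both sides of 0, from -1.16 to 0.88.

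Markers of the cell type and of other cells moved with treatment. Of 12 dermal papilla and mesenchymal markers, 8 were tested and 8 were lower with TMM, where 38.7% of all genes were. The 12 summed to 55522 to 58396 CPM in the control libraries and 2450 to 2549.7 CPM with ATRA. Most of the control sum came from COL1A1 and VIM, with means of 27440 and 19158 CPM. With library size only 6 of the 8 tested were lower, where 22.7% of all genes were. LEF1 then lost its call (-0.061) and PDGFRB turned to 0.036. The remaining 4 had too few counts to be tested, among them ALPL (0 counts in each control library), CORIN (1 count in the control group) and SOX2. SOX2 went the other way, with 5, 0 and 2 counts in the control libraries and 10, 16 and 9 with ATRA. ACTA2 fell from a mean of 6582 to 8.37 CPM, whereas PROM1, which encodes CD133, had 1 count in the control group and 0 with ATRA.

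Of the lists for other cell types, those for keratinocytes, endothelial cells and melanocytes did not move as units, while the leukocyte markers present all rose. Of the markers chosen for other cell types, KRT1, TIE1, PTPRC, LYZ, DCT, TYR and MLANA were not among the 15944 genes counted. The sums below cover only the markers that were present. The 6 keratinocyte markers summed to 3.11 to 4.95 CPM in the control libraries and 5.37 to 5.97 CPM with ATRA, which followed KRT10 (3.17 to 5.62 CPM on average), while KRT14 had 20, 14 and 10 counts against 3, 0 and 0, KRT5 was at 0 with ATRA, and CDH1 was at 0 in the control group. The 4 endothelial markers summed to 0.322 to 0.556 and 5.24 to 8.03 CPM, which followed PECAM1 (0 counts in each control library, a mean of 6.095 CPM with ATRA). Of the other endothelial markers, KDR had 5, 6 and 10 counts against 2, 1 and 0, CDH5 had 1 count in all, and VWF was not called (log₂FC 0.065). The 3 leukocyte markers summed to 9.15 to 12.8 and 41.2 to 44.0 CPM. CD14 (log₂FC 2.18) and CD68 (1.41) were called higher, where 40.9% of all genes were. CD3E had 1, 0 and 1 counts in the control libraries and 2, 5 and 3 with ATRA, too few to be tested. Of the 2 melanocyte markers, which summed to 16.1 to 17.6 and 32.2 to 38.97 CPM, MITF was higher (log₂FC 1.33) and PMEL lower (-0.901). The part of these shifts in the changes of the cyclins and CDKs was not tested.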

How the data were processed

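Libraries were prepared from oligo(dT)-enriched mRNA, and the authors cleaned reads with fastp and TrimGalore. The submitters' processing notes name HISAT2, featureCounts and DESeq2, and the genome build and annotation are not given in the sources used here. The authors deposited whole-number read counts per gene, not normalized, in 1 column per library, and each of these columns was used. Genes were kept by the expression filter of edgeR (12588 of 15944), scaled by TMM and fitted over the whole table with the robust quasi-likelihood test, with 3 libraries per group and no covariate. The prior count was 0.125, and the SE came from the log₂FC and its F statistic, as |log₂FC| / √F. The test named in the study's methods, t.test in R, served as an alternative, since counts were deposited. The DEG thresholds are those of the methods. Members, lists and tests were chosen with earlier results of these data known. Members were found by name or listed symbol (all 55 names matched RefSeq symbols of ARS1.2, of which no coordinates were used). A tested member with a cell-cycle or transcriptional role was named, an other member was named when past both thresholds, and up to 4 genes with the largest change were named per list. The other members, CCNJ, CCNO, CCNY, FAM58A, CCNG1, CDK5, CDK10, CDK16, CDK17 and CDK20, were named after their values were seen, as were SKP1, CUL1, FBXW7, FZR1 and MNAT1. Where nothing ties libraries to animals, p-values measure the spread between these libraries. No pair of libraries within a group matched within sampling noise (chi-square divided by its degrees of freedom was 5.01 to 18.4). On simulated counts with 200 of 12588 genes changed, edgeR called 191 of them and 12 unchanged genes. In the data 79.7% of genes were called, and the accuracy of edgeR calls at such a share was not tested. Alternatives were RLE, upper-quartile or no scaling factors, other filters and thresholds, DESeq2, t.test, a prior count of 2, a fit blocked on replicate number, and fits without 1 library at a time. Fits used edgeR 4.0.16, limma 3.58.1 and DESeq2 1.42.0 under R 4.3.3, and summaries and figures used Python 3.11.15 with matplotlib 3.10.9.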

Additional observations from a re-analysis of the deposited data

How the results depend on the processing

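Scaling moved the counts most. With library size only, 0 transcriptional and 1 other member were lower, where 22.7% of all genes were lower and 62.9% higher. Under that scaling 5 cell-cycle and 6 transcriptional members were higher DEGs, but the share of all genes that were DEGs was not counted. The medians were -0.74 for cell-cycle and 0.95 for transcriptional members, against 0.52 for all genes. The sign turned for CCND2 (0.37), CCNY (0.14), CDK16 (0.43), CDK19 (0.018), CDK2 (0.30), CDK20 (0.086), CDKN2B (0.16), FAM58A (0.079) and LOC108636541 (0.46). The scaling itself accounts for this, since each value rose by about the shift of all genes. Upper-quartile scaling gave medians of -1.14 and 0.55 and turned CDK16 (0.024) and LOC108636541 (0.059). RLE scaling and DESeq2 turned CDK12 (-0.0052 and -0.0052) and LOC102188159 (-0.013 and -0.013), and the filter of at least 1 count turned LOC102188159 (-0.0046). The cell-cycle median was -1.63 with a CPM of at least 1 in 3 libraries, which removes CDKN1C, and -1.15 with t.test. With t.test, 7 members lost their call at an adjusted p under 0.05, including CCNC, CDK8, CDK13 and CDKN1C. This leaves 8 transcriptional members higher, and the share of all genes called with t.test was not counted. CDKN1C also lost its call with RLE scaling, DESeq2 and the filter of at least 1 count, while CDK2 was called lower with RLE scaling. With |log₂FC| above 2, 0 cell-cycle and 0 transcriptional members were higher DEGs. With each library left out in turn, the cell-cycle median ranged from -1.23 to -1.18 and the transcriptional one from 0.44 to 0.49, and 12 cell-cycle members were lower DEGs in each case, while 2 to 4 were higher DEGs, as CCNE1 and CDK3 lie near the threshold. Members that were not called changed sign: CDK12 (-0.048 to 0.074), CCNO (-0.021 to 0.27), LOC102188159 (-0.021 to 0.034) and LOC108636541 (-0.073 to 0.059). With the replicate number as a block, no call changed, and the medians were -1.22 and 0.47. Same-numbered libraries did not deviate together across genes (correlations 0.16, 0.0065 and -0.13), so the number was not taken as a pairing. The number of libraries, 3 per group, limits members of few counts such as CDKN1C.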
